A study of Homo sapiens with 6 samples.

Results

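The HOX cluster genes are 39 of the 57820 genes in the expression table, chosen by their symbol (HOX, a letter A to D for the cluster and a number for the position), so no measured value entered the choice. There were 11 members in the HOXA cluster, 10 in HOXB, 9 in HOXC and 9 in HOXD. HOXC4 was listed in 2 rows, and the row with the larger total was kept. All libraries came from M14, a human melanoma cell line that carried a doxycycline-inducible shRNA against STAG2. The paper lists hygromycin, blasticidin or puromycin for keeping stable cells, without saying which was used for these. STAG2 encodes a subunit of cohesin, the ring complex that forms DNA loops. The cells were cultured for 5 days without doxycycline (WT, 3 libraries) or with doxycycline (STAG2-KD, here KD, 3 libraries), and no library came from cells given doxycycline without the shRNA, so the effects of doxycycline and of the knockdown cannot be told apart. The study describes its replicates as biologically independent samples, and the labels do not say how they were separated.

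HOX genes encode transcription factors with a homeodomain that give cells their position along the body axis. In each cluster the genes lie in the order of the body levels they pattern, with low numbers acting toward the head and high numbers toward the tail and the limb ends. Polycomb complexes keep unused stretches of the clusters silent, trithorax complexes keep used stretches active, and sites bound by CTCF and cohesin separate such stretches. The comparison asks whether the HOX genes differed between the conditions, in a series on genome folding after STAG2 knockdown.

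The libraries held between 24895998 and 35181733 expected counts, which puts a floor of 3 counts at 0.0853 to 0.121 CPM, counts scaled to library size. The floor covers counting error only, and in bulk RNA a lower level per cell and fewer cells with the transcript cannot be told apart. STAG2 itself measured 66.4, 34.7 and 28.8 CPM in WT and 15.9, 7.30 and 6.69 CPM in KD. Every KD library lay below every WT library, with a log2 fold change of -2.12 (SE 0.43, adjusted p = 0.0342 by the quasi-likelihood test of edgeR, adjusted after Benjamini and Hochberg). That call was lost without WT replicate 2 or 3 or KD replicate 2 or 3, with values between -2.35 and -1.92. STAG2 was also called by edgeR with the replicate number as a block (adjusted p = 0.000104) and by DESeq2 (adjusted p = 3.45e-05). Markers of the melanocyte lineage were present in all libraries, and S100B was the 1 of 10 that was called (log2 fold change -1.35, adjusted p = 0.00949 in edgeR). Replicate 1 of both conditions stood apart from the others. Summed melanoma markers were 6690 CPM in WT replicate 1 against 2254 and 2119 in the other WT libraries, and 2858 in KD replicate 1 against 1583 and 1470. PMEL (3366 CPM) and DCT (1430 CPM) made up most of the sum in WT replicate 1. SOX10 was lowest in replicate 1, at 572 CPM against 670 and 613 in WT and 324 against 474 and 366 in KD. S100B, ERBB3 and TFAP2A were highest in replicate 1 only in WT. Summed fibroblast markers were lowest in replicate 1, at 7.69 CPM against 103 and 73.3 in WT and 5.84 against 29.3 and 20.8 in KD. COL1A1 made up most of that sum in replicates 2 and 3, while THY1 was the larger part in replicate 1 of both conditions. Blood markers summed to between 1.80 and 3.70 CPM with CD3E and HBB at 0, endothelial markers to between 1.75 and 5.44 CPM, and epithelial markers, mostly KRT18, to between 153 and 459 CPM. No gene of these 4 lists was called, 1 fibroblast and 6 melanoma markers were lower with the replicate number as a block, and their part in the HOX values was not tested.

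In WT cells 25 of the 39 HOX genes reached a mean of 1 CPM, 8 of them in HOXC, 7 in HOXB, 6 in HOXA and 4 in HOXD. HOXB and HOXC together carried most of the HOX reads, with 44.8% and 36.9% of the summed CPM, against 11.4% for HOXA and 6.96% for HOXD. Per kilobase of exon, the scale on which genes of different length can be set side by side, the highest WT level was that of HOXB7 at 19.6 ± 1.87 CPM per kb (SD, n = 3). HOXB2 followed at 13.2 ± 4.70, HOXC10 at 11.6 ± 1.66, HOXB4 at 9.68 ± 1.81 and HOXC13 at 6.78 ± 1.66 CPM per kb. The ranges of HOXB2, HOXC10 and HOXB4 over the WT libraries overlapped, though HOXB2 and HOXC10 were each above HOXB4 within every WT library. The highest HOXA gene, HOXA4, had 4.26 ± 1.98 CPM per kb and the highest HOXD gene, HOXD8, had 2.63 ± 0.93.

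**Figure D1:**
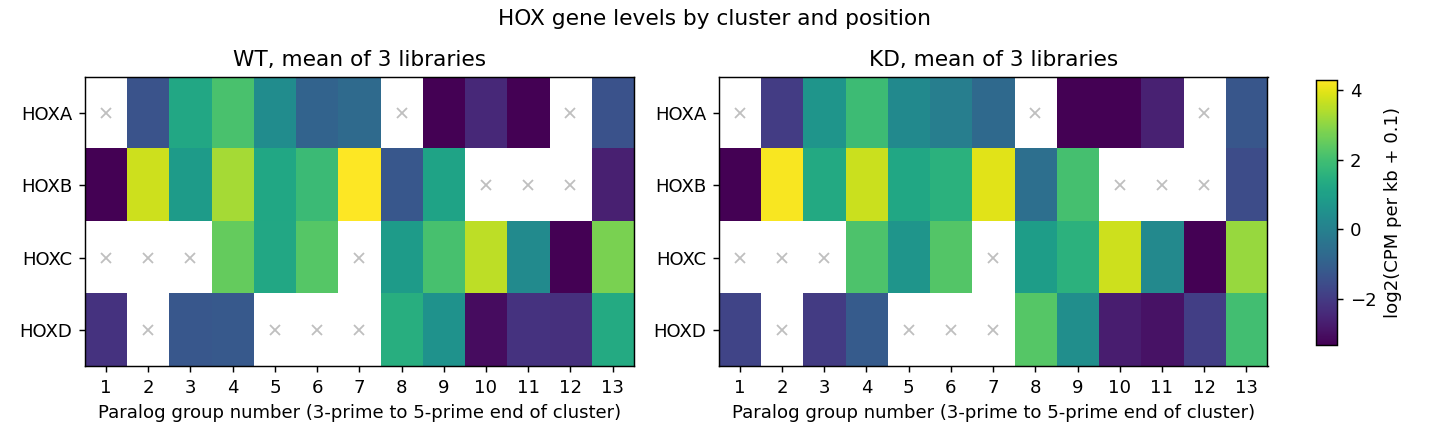
Mean level of each HOX gene in WT (left) and KD (right), as log2(CPM per kilobase of exon + 0.1), with clusters as rows and the position number 1 to 13 as columns; a cross marks a position without a gene or one not shown. In both conditions the brightest fields are HOXB7, HOXB2, HOXC10 and HOXB4, and HOXA9, HOXB1 and HOXC12 are at 0.

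The silent members were not at 1 end of all clusters. HOXA9, HOXB1 and HOXC12 had 0 counts in every library, which allows a level of up to 0.0853 to 0.121 CPM per library. HOXB1 is the member nearest the head end of its cluster, HOXC12 lies between the measured HOXC11 and HOXC13, and HOXA9 lies beside the low HOXA10. The 6 other members that were too low to test were HOXA10, HOXA11, HOXB13, HOXD1, HOXD10 and HOXD11. Their highest value in any library was 1.68 CPM, for HOXB13 in KD replicate 1, and each of the 6 had at least 1 library at 0. HOXA2, HOXD4 and HOXD12 were tested with a mean below 1 CPM in both conditions. At the tail end, HOXA13, HOXC13 and HOXD13 were measured beside these low neighbours, so the levels did not change evenly with position in HOXA, HOXC or HOXD. Per kilobase of exon, HOXA13 was itself low in WT, at 0.275 ± 0.149 CPM per kb beside 0.286 ± 0.129 for HOXA2 (SD, n = 3).

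Of the 30 HOX genes that could be tested, 0 were called at an adjusted p under 0.05 when KD was compared with WT (edgeR, adjusted over 15605 genes). The background was 2.59% of all tested genes called, 1.75% higher and 0.839% lower in KD, so a count of 0 among 30 is near it and is no result about the HOX genes. At an unadjusted p under 0.05 there was 1 HOX gene, against 14.8% of all genes. DESeq2 and limma-voom likewise called 0 HOX genes, with backgrounds of 6.28% and 2.64%. With the replicate number as a block, 0 were called against a background of 9.52%, and 3, HOXB2 and HOXB9 among them, had an unadjusted p under 0.05 against 22.9%. Without replicate 1 of both conditions, an alternative chosen after seeing the data, 0 were called against 4.73%. The lowest adjusted p among HOX genes was then 0.0673, for HOXD8.

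The fold changes of the tested HOX genes were spread around 0, with 15 above and 15 below. Their median log2 fold change was 0.02, beside -0.03 for all tested genes. The median size regardless of sign was 0.38 for both. KD and WT libraries did not overlap for 6 HOX genes, 3 with KD above, HOXB3 and HOXD13 among them, and 3 with KD below, HOXB6, HOXB7 and HOXD3. Among all tested genes 22.3% did not overlap, 11.8% with KD above and 10.4% with KD below, so the HOX share is near the background. The 95% interval of the log2 fold change stayed within 1 of 0 for 4 HOX genes (HOXB4, HOXB7, HOXC6 and HOXC10), against 36.6% of all tested genes, and the median distance from the estimate to the interval's end was 1.12 against 0.78. For the other tested HOX genes a change of 1 on the log2 scale lay within the interval.

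**Figure D2:**
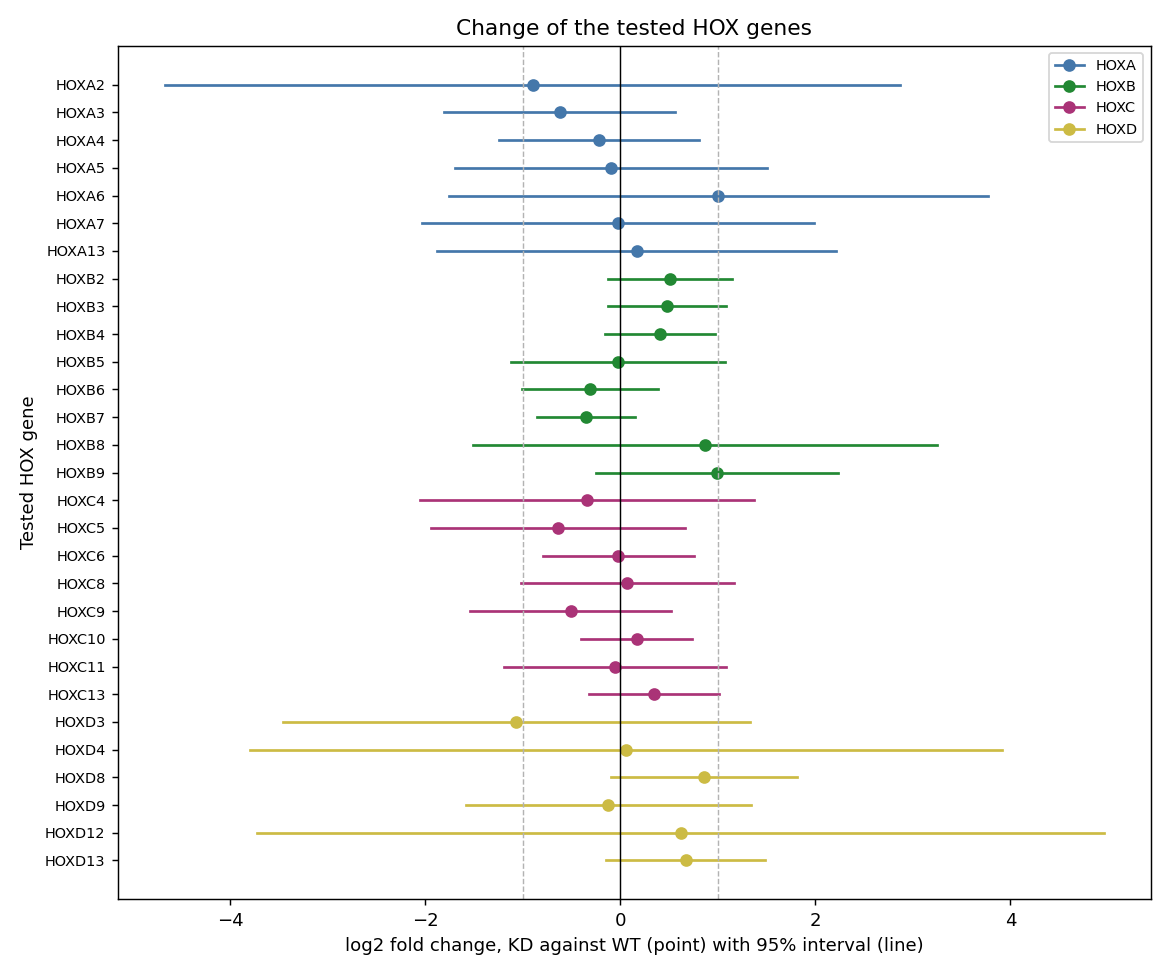
Log2 fold change of KD against WT for the tested HOX genes named in the report (points) with 95% intervals (lines), by cluster; dashed lines mark -1 and 1. The interval of every gene shown includes 0, and the narrowest ones, such as HOXB7 (-0.86 to 0.15), lie within the dashed lines.

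In the HOXA cluster (GRCh37, chromosome 7, minus strand) the conditions overlapped for each gene described here. HOXA3, which patterns the pharyngeal arches, had 7.85, 9.30 and 12.1 CPM in WT and 1.96, 9.74 and 7.34 CPM in KD, with KD replicate 1 far below the rest and a log2 fold change of -0.62 (95% interval -1.81 to 0.56). HOXA4, a neck-level gene, had 3.72, 7.83 and 10.5 CPM in WT and 4.32, 6.49 and 8.16 CPM in KD. In both conditions replicate 1 of HOXA4 was the lowest and replicate 3 the highest. HOXA5, which acts in lung and neck development, had 2.08, 2.87 and 1.24 CPM in WT and 1.37, 2.98 and 1.44 CPM in KD. HOXA6 lies next to it and had 0.228, 0.232 and 1.22 CPM in WT and 1.21, 1.65 and 0.459 CPM in KD. These are low levels at which single libraries differed several-fold within a condition. The trunk gene HOXA7 had 0.819, 1.36 and 1.60 CPM in WT and 1.94, 1.12 and 0.673 CPM in KD. HOXA13, which shapes hands, feet and the urogenital tract, had 1.64, 2.0 and 0.546 CPM in WT and 1.27, 0.642 and 2.78 CPM in KD. The intervals of these low genes were wide, from -1.88 to 2.21 for HOXA13.

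**Figure D3:**
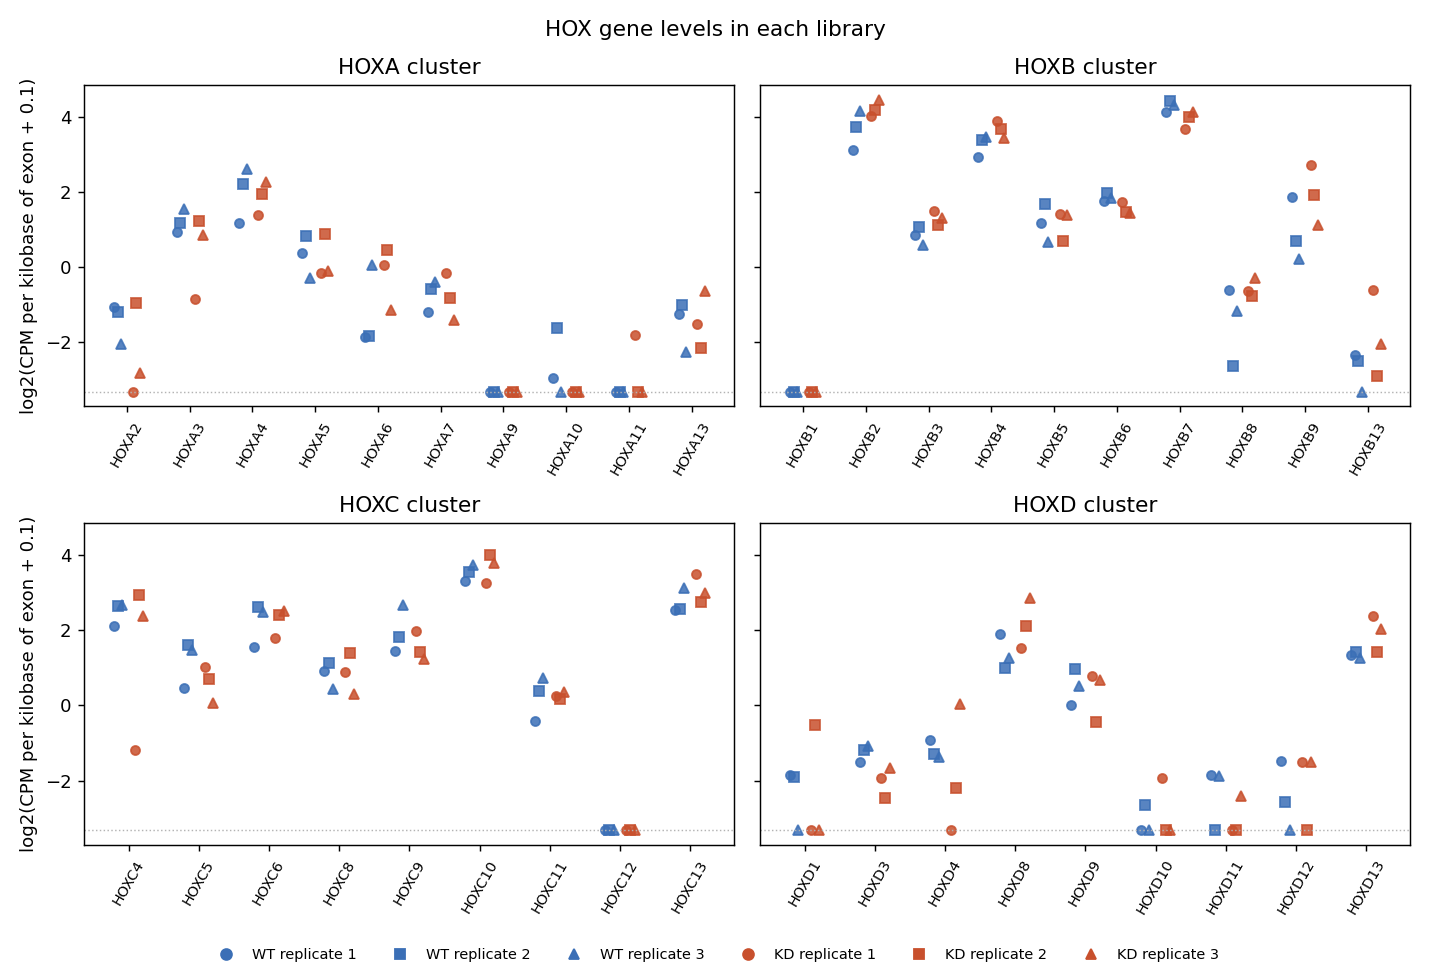
Level of the HOX genes in each library, as log2(CPM per kilobase of exon + 0.1), in 1 panel per cluster with genes in order of position number; blue is WT, red is KD, and circles, squares and triangles are replicates 1, 2 and 3. The dotted line is a count of 0, and in KD replicate 1 the points of HOXA3 and HOXC4 lie far below the other libraries.

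HOXB (GRCh37, chr17:46605888-46806112, minus strand, 200.2 kb) was the cluster with the largest sum of reads. Its members summed to 99.2, 121 and 123 CPM in WT and 142, 131 and 139 CPM in KD. As in HOXD, all KD sums lay above all WT sums, which was not tested. HOXB2, a hindbrain gene, gave the largest part of that gap, with 21.0, 32.3 and 44.1 CPM in WT and 39.8, 44.8 and 54.1 CPM in KD. Within each replicate number HOXB2 was higher in KD, yet KD replicate 1 was below WT replicate 3. The log2 fold change of HOXB2 was 0.51 (95% interval -0.12 to 1.14, adjusted p = 0.463 in edgeR and 0.0935 with the block). HOXB3 had 12.8, 14.9 and 10.5 CPM in WT and 20.1, 15.3 and 17.8 CPM in KD. HOXB4, known for expanding blood stem cells, had 15.3, 20.8 and 22.1 CPM in WT and 29.8, 25.7 and 21.6 CPM in KD. HOXB3 did not overlap between conditions and HOXB4 did, with log2 fold changes of 0.48 (95% interval -0.12 to 1.08) and 0.41 (95% interval -0.16 to 0.97).

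HOXB5, HOXB6 and HOXB7 had log2 fold changes below 0, and HOXB8 and HOXB9 above 0. HOXB5 had 4.02, 5.74 and 2.76 CPM in WT and 4.82, 2.81 and 4.71 CPM in KD, a log2 fold change of -0.02 that was 0.0056 with the block. HOXB6 had 8.52, 10.0 and 9.09 CPM in WT and 8.44, 6.95 and 6.82 CPM in KD, all below WT but by less than 0.1 CPM for KD replicate 1. HOXB7, which was linked to growth factor expression in melanoma before this series, had 26.8, 32.4 and 30.4 CPM in WT and 19.3, 24.4 and 26.6 CPM in KD. The conditions did not overlap for HOXB7, and its log2 fold change of -0.35 (95% interval -0.86 to 0.15) had an adjusted p of 0.557 in edgeR. HOXB8 was low, at 1.34, 0.145 and 0.837 CPM in WT and 1.31, 1.18 and 1.74 CPM in KD, a log2 fold change of 0.87 (95% interval -1.51 to 3.25). HOXB9, a thoracic gene, had 9.23, 3.97 and 2.73 CPM in WT and 16.9, 9.47 and 5.35 CPM in KD. HOXB9 was highest in replicate 1 and lowest in replicate 3 of each condition and higher in KD within each number. On the log2 scale the change was 0.99 (SE 0.56, adjusted p = 0.469 in edgeR), and 1.03 (SE 0.31, adjusted p = 0.0660) with the block.

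In the HOXC cluster (GRCh37, chr12:54332615-54449814, plus strand, 117.2 kb) no member was free of overlap between conditions. HOXC10, a lumbar-level gene, was the highest, with 23.4, 27.8 and 31.3 CPM in WT and 22.3, 37.7 and 32.6 CPM in KD. Its interval of -0.40 to 0.74 around a log2 fold change of 0.17 was among the narrowest. HOXC13, which drives keratin genes of hair and nail, had 13.6, 13.9 and 20.5 CPM in WT and 26.4, 15.8 and 18.7 CPM in KD, and the log2 fold change was 0.35 (95% interval -0.32 to 1.01). HOXC11, on the other side of the silent HOXC12, had 2.12, 3.94 and 5.13 CPM in WT and 3.54, 3.38 and 3.85 CPM in KD. HOXC11 and HOXC13 thus differed in level and neither passed the test.

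HOXC6, a trunk gene, had 9.84, 21.0 and 19.1 CPM in WT and 11.8, 18.0 and 19.5 CPM in KD, a log2 fold change of -0.02 (95% interval -0.80 to 0.75), with replicate 1 lowest in both conditions. HOXC8, which acts in the lower thorax, had 4.32, 5.04 and 3.06 CPM in WT and 4.23, 6.09 and 2.75 CPM in KD. In both conditions replicate 2 of HOXC8 was the highest and replicate 3 the lowest. The log2 fold change of HOXC8 was 0.07 (95% interval -1.02 to 1.16). HOXC9, a thoracic motor neuron gene, had 4.35, 5.71 and 10.5 CPM in WT and 6.47, 4.29 and 3.73 CPM in KD, with WT replicate 3 the highest. Its log2 fold change of -0.51 (95% interval -1.54 to 0.52) did not pass the test. HOXC5 had 2.04, 4.79 and 4.29 CPM in WT and 3.11, 2.49 and 1.53 CPM in KD, a log2 fold change of -0.64 (95% interval -1.94 to 0.67). It shared 66.4% of its 50-base windows with the overlapping lncRNA RP11-834C11.14, which had 0.707, 0.159 and 0 CPM in WT and 2.67, 1.12 and 2.76 CPM in KD. The sum of that pair was 4.0 ± 1.13 CPM in WT and 4.56 ± 1.11 in KD (SD, n = 3), a difference smaller than the spread and of the other sign.

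How far reads of 50 bases can tell the HOX genes apart was read from the transcripts of the GENCODE v44lift37 annotation on GRCh37. Of the 39 members, 21 shared no 50-base stretch with another gene, and 8 shared more than 10% of theirs, mostly with an overlapping gene of the same cluster. The annotation used for counting is not given and can hold other genes. The second row named HOXC4 is not in the annotation used here, so stretches shared with that row were not seen. Of 569 pairs in different clusters, 1 pair shared a coding run of 50 or more bases, HOXB3 and HOXD3, and the 42 such pairs with the same number had a median longest coding run of 18. Within clusters 2 of 172 pairs did. HOXB7 was the HOX gene with the highest WT level per kilobase of exon. A coding run as long as a full read is printed for HOXB6 and HOXB7, because reads from it cannot be assigned to 1 gene. It has no capitals, since all of it is shared.
HOXB6 (chr17:46673907-46673957, minus strand) and HOXB7 (chr17:46685342-46685392, minus strand), 51 bases: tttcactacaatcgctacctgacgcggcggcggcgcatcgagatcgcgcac
HOXB6 and HOXB7 share 2 windows of 50 bases in this way, and HOXB7 has 1464 windows in all. HOXB6 shared 14.6% of its windows with other HOX genes, nearly all of them with the overlapping HOXB3. HOXB3 shared 5.22% of its windows with other HOX genes, most of them with HOXB6. The log2 fold change was 0.48 for HOXB3 and -0.31 for HOXB6, and the part of shared reads in these values was not tested.

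For HOXC4, as for HOXC5, the sign of the difference turned on how reads were divided. The kept row (ENSG00000198353) held 313.83, 586.65 and 475.62 expected counts in WT and 30.0, 623.47 and 466.83 after doxycycline, and the second row of that name (ENSG00000273266) held 6.66, 8.35 and 9.86 in WT and 563, 18.97 and 9.17 in KD. In KD replicate 1 the second row thus held 94.9% of the pair, against 1.40% to 2.95% in the other libraries. The sum of the rows was 593 counts in KD replicate 1, inside the range of 320 to 642 of the others. In CPM the kept row had 11.7, 17.0 and 17.3 in WT and 0.933, 21.1 and 14.3 in KD. This gave a log2 fold change of -0.34 (95% interval -2.06 to 1.37). The second row alone gave 4.41 (SE 1.42, adjusted p = 0.165 in edgeR), which rests on KD replicate 1, since without that library it was 0.68. With the rows summed, an alternative chosen after seeing the data, HOXC4 had 15.6 ± 3.20 CPM in WT and 18.2 ± 3.59 in KD (SD, n = 3) and a log2 fold change of 0.22 (95% interval -0.40 to 0.85). The sign for HOXC4 therefore flipped with the row used, and neither passed the test. The HOXC sum in KD replicate 1 was 78.8 CPM with the kept row and 96.3 CPM with both.

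**Figure D4:**
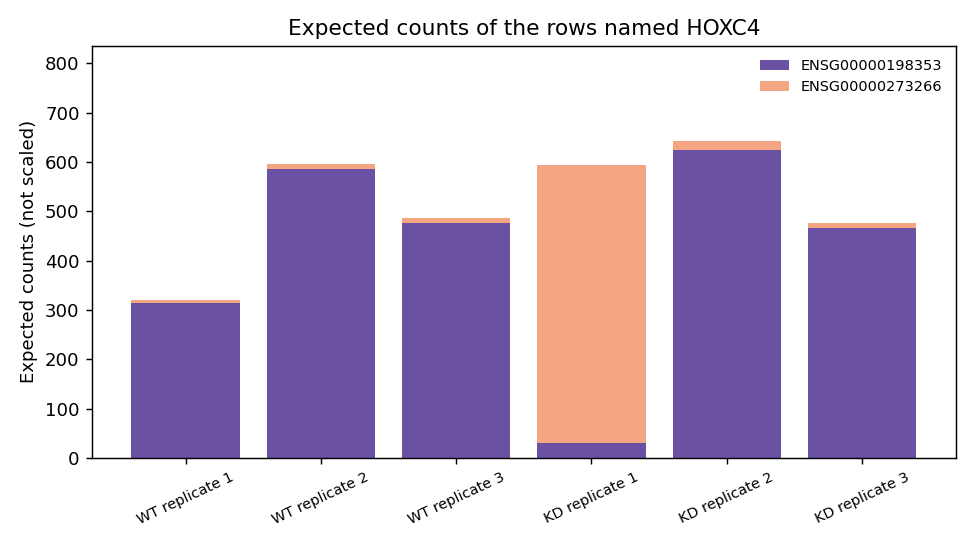
Expected counts, not scaled for depth, of the rows named HOXC4 in each library, stacked; purple is ENSG00000198353 and orange is ENSG00000273266. Only the bar of KD replicate 1 is mostly orange, while its height of 593 lies within that of the other bars.

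HOXC4 and HOXC5 also share a start in RefSeq. The 250 bases before it are printed because 1 window stands for both genes, so the level of transcripts begun there cannot be split between HOXC4 and HOXC5 by their start (RefSeq, GRCh38.p14, chr12:54016638-54016887, plus strand, GC content 50.8%). A CTCF core (AGGGGGC), a HOX and PBX site (TGATNNAT) and a TATA box (TATAAA) were sought on both strands of the 250 bases before each RefSeq start, and this window holds none of them, so it has no capitals. They occurred in 14.8%, 11.1% and 18.5% of 27 HOX windows, which cover 20 of the 39 members, and in 13.3%, 6.47% and 10.7% of all 35116 windows.
HOXC4 and HOXC5: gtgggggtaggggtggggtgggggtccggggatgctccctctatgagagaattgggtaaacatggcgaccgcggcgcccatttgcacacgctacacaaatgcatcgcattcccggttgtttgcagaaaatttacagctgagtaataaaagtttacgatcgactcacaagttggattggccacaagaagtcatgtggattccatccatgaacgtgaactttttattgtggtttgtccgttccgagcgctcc

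HOXD (GRCh37, chr2:176957449-177055635, plus strand, 98.2 kb) had the smallest mean sum in both conditions, with 20.0, 16.9 and 16.3 CPM in WT and 24.4, 20.1 and 34.1 CPM in KD. In KD replicate 1 HOXA was lower, at 21.4 CPM. As in HOXB, all KD sums lay above all WT sums, but KD replicate 2 was only just above WT replicate 1. HOXD8 and HOXD13 carried most of the HOXD sum. HOXD8 had 9.64, 4.96 and 6.11 CPM in WT and 7.40, 11.1 and 19.0 CPM in KD. Against the WT library of the same number, KD was lower in replicate 1 and higher in replicates 2 and 3. Its log2 fold change was 0.86 (95% interval -0.10 to 1.81, adjusted p = 0.402 in edgeR), and 1.45 without replicate 1 of both conditions. HOXD13, in which mutations cause fused and extra digits, had 5.88, 6.23 and 5.60 CPM in WT and 12.3, 6.29 and 9.60 CPM in KD. The conditions did not overlap, though KD replicate 2 was within 0.1 CPM of WT replicate 2, and the log2 fold change was 0.67 (95% interval -0.14 to 1.48). HOXD9, a limb gene, had 1.71, 3.48 and 2.47 CPM in WT and 3.05, 1.18 and 2.81 CPM in KD. HOXD3, a neck-level gene, had 0.926, 1.25 and 1.39 CPM in WT and 0.591, 0.305 and 0.801 CPM in KD, all below WT. Its interval of -3.46 to 1.33 around a log2 fold change of -1.07 spans both signs at this low level.

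Of the antisense and intergenic RNAs of the clusters, 17 were in the table, 9 were tested and 0 were called, near the background of 2.59%. HOXD-AS1 was the highest of them in CPM, with 12.4, 18.5 and 14.5 CPM in WT and 12.1, 11.7 and 9.20 CPM in KD. Its KD libraries lay below its WT libraries, with a log2 fold change of -0.46 (SE 0.29, adjusted p = 0.534 in edgeR). HOXD-AS2 had 3.01, 2.78 and 3.48 CPM in WT and 0.342, 2.77 and 3.45 CPM in KD, low in KD replicate 1. HOXB-AS1, which lies opposite HOXB2 and HOXB3, had 1.66, 1.11 and 0.535 CPM in WT and 1.76, 1.67 and 2.74 CPM in KD, where the lowest KD value was just above the highest WT value. HOTAIR, HOXA-AS2 and HOXC-AS5 had means between 0.837 and 2.11 CPM and overlapped between the conditions. Of all 42 other listed rows inside the clusters, 21 were at 0 in every library and 0 of 11 tested were called.

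Genes known to act on or with HOX genes were described from lists chosen with earlier results known. Of all tested genes 2.59% were called, the background for each list. TALE cofactors, the homeodomain proteins that bind DNA beside HOX proteins, had 10 tested members and 0 called. Their median log2 fold change was -0.07, and PKNOX2 (-1.40) and MEIS3 (0.59) had the largest values. Polycomb PRC2 had 11 tested members and 0 called, and PRC1 19 and 0. With the replicate block 1 of PRC2 and 2 of PRC1 were called, against a background of 9.52%. These were PHF19, an accessory subunit of PRC2 (log2 fold change -0.89, adjusted p = 0.170 without and 0.00670 with the block), CBX2, which reads the Polycomb mark (-0.98, 0.172 and 0.00399), and PCGF1, a PRC1 subunit (0.87, 0.0979 and 0.0316), all from edgeR. EZH2, the main catalytic subunit of PRC2, measured 32.8, 27.4 and 32.0 CPM in WT and 24.5, 21.1 and 24.1 CPM in KD, and was named after its values were seen. Its log2 fold change of -0.40 (SE 0.21) had an adjusted p of 0.439 in edgeR.

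Trithorax and related genes had 17 tested members and 0 called. With the block KDM6B, which removes the Polycomb mark (0.88, adjusted p = 0.0704 without and 0.0152 with the block), and DOT1L, a histone methyltransferase (0.62, 0.173 and 0.0247), were called higher in edgeR. These were 2 of 17, against a background of 9.52% with the block. The list of retinoic acid and CDX inputs, the signals that switch on HOX genes in the embryo, had 10 tested members and 1 called. The background was 2.59%, and CDX1, CDX2 and CDX4 were at 0 in every library. The called gene was RXRG, a retinoid receptor, with 47.4, 31.9 and 42.2 CPM in WT and 13.2, 18.3 and 21.6 CPM in KD. Its log2 fold change was -1.19 (SE 0.26, adjusted p = 0.0489 in edgeR), and the call was lost when any 1 of the 6 libraries was left out, with values from -1.38 to -1.02. CYP26B1, which breaks down retinoic acid, had the largest change of the list, with 0.335, 10.9 and 5.31 CPM in WT and 0.435, 0.406 and 0.978 CPM in KD, and was named after its values were seen. WT replicate 1 lay below all KD libraries, against the direction of the change. Its log2 fold change of -3.17 was not called by edgeR (adjusted p = 0.174, and 0.188 with the block), but was called by DESeq2 (adjusted p = 0.0219) and, in edgeR, without WT replicate 1 (-3.73, adjusted p = 0.0179). With the block, ALDH1A3, which makes retinoic acid (-0.80, adjusted p = 0.142 without and 0.00625 with the block), and RARG, a retinoic acid receptor (0.83, 0.252 and 0.00448), were also called in edgeR. The list then had 1 higher and 2 lower, RXRG among the lower, against a background of 9.52%.

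Among neighbours of the 4 clusters, 15 were tested and 0 called, with NFE2 (1.63) and CBX5 (-1.09) the largest log2 fold changes. With the block 4 were called in edgeR, against the same 9.52%. CBX5, a heterochromatin protein beside HOXC, had 128, 143 and 111 CPM in WT and 32.8, 80.8 and 65.5 CPM in KD, all below WT (adjusted p = 0.113 without and 0.0112 with the block). The others were CALCOCO1 (0.66, 0.119 and 0.0344) and ATP5G2 (-0.77, 0.102 and 0.0117) beside HOXC, and SNX10 (-0.99, 0.433 and 0.0417) near HOXA. SNX10 had 97.7, 30.8 and 23.8 CPM in WT and 38.3, 21.9 and 16.4 CPM in KD, which overlapped. Its log2 fold change was -0.80 with the block and ran from -1.40 to -0.11 when each library was left out. The list medians were -0.15 for PRC2, 0.10 for PRC1, -0.10 for trithorax, -0.46 for the retinoic acid and CDX list and -0.23 for the neighbours, beside -0.03 for all tested genes.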

How the data were processed

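RNA-seq libraries were made from M14 cells cultured for 5 days without (WT, 3) or with doxycycline (KD, 3). Per the study's methods and the labels, libraries of polyadenylated RNA kept the strand and gave single-end reads of 50 bases, which the authors mapped to hg19 with STAR 2.7.0f and counted with RSEM 1.3.0. The authors deposited expected counts per gene, not scaled or filtered, in which a read that matches several genes is divided between them. The strand setting and gene annotation of the counting are not given in the sources used here. Ranges of total counts and the floor of 3 counts are in the report.

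These values were rounded, low genes were removed by filterByExpr (15605 kept), libraries were scaled by TMM, and KD was compared with WT by edgeR 4.0.16 (R 4.3.3) with the quasi-likelihood test and Benjamini-Hochberg adjustment over all tested genes, at an adjusted p under 0.05. CPM values are divided by TMM-scaled library sizes, and the floor by the unscaled totals. Level per kb used the exon length in GENCODE v44lift37. Alternatives were DESeq2 1.42.0, limma-voom (limma 3.58.1), upper-quartile factors, no filter, at least 10 counts in every library, unrounded counts, a replicate block, leaving out each library, an adjusted p under 0.01, and, added after seeing the data, summed HOXC4 rows and leaving out replicate 1 of both conditions. The methods were tested on simulated data.

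Deviations from the mean of each condition had r = 0.567, 0.420 and 0.310 over 10334 genes for replicates 1, 2 and 3 of the same number. WT replicate 2 with KD replicate 3 had 0.255, and WT replicate 3 with KD replicate 2 had 0.211. Because replicate 1 stood apart in both conditions, the centring alone makes replicates 2 and 3 deviate together. These values therefore set only replicate 1 apart as a pair. The block took all numbers as pairs, which the labels do not state. The correlations of libraries with different numbers ran from -0.484 to 0.255. The members, lists and tests were chosen with earlier results of these data known. Every HOX gene with a mean of at least 1 CPM in either condition was named, except 1 gene and some shared sequences that are not reported here, as were called genes of each list or else the 2 largest changes. Genes called with the block were named after their values were seen.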

Additional observations from a re-analysis of the deposited data

How the results depend on the processing

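Under all alternatives run, 0 HOX genes were called. Of 27 HOX genes followed, 345 of 377 alternative values kept their sign and call, and 32 values of 11 genes turned sign. HOXA5 was 0.11 and HOXC4 0.050 without replicate 1 of both conditions. HOXC4 was 0.22 with its rows summed and 0.23 with the block as well. With the replicate block HOXB5 was 0.0056, HOXC6 0.018 and HOXC11 0.028, and with limma-voom HOXC8 was -0.0058 and HOXC11 0.020. Leaving out each library gave ranges of -0.56 to 0.54 (HOXA13), -0.54 to 0.13 (HOXA4), -0.56 to 0.21 (HOXA5), -0.49 to 0.25 (HOXA7), -0.25 to 0.27 (HOXB5), -0.0033 to 0.36 (HOXC10), -0.34 to 0.24 (HOXC11), -1.01 to 0.21 (HOXC4), -0.29 to 0.18 (HOXC6), -0.25 to 0.30 (HOXC8) and -0.35 to 0.19 (HOXD9). The cause was not tested.

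All genes called higher and lower numbered 273 and 131, and 547 and 432 in DESeq2, 573 and 530 without a filter, 796 and 690 with the replicate block, 461 and 296 without replicate 1 of both conditions, 116 and 21 at an adjusted p under 0.01, and from 106 to 340 and from 15 to 191 when each library was left out. STAG2 ranged from -2.63 to -1.68. With the block, PRC2 had 1 lower, PRC1 1 higher and 1 lower, trithorax 2 higher, the retinoic acid list 1 higher and 2 lower, and the neighbours 1 higher and 3 lower. In DESeq2 the counts were PRC1 1 higher, trithorax 1 higher, retinoic acid 3 lower, neighbours 1 higher and 2 lower. Without a filter they were PRC2 1 lower, PRC1 1 lower, trithorax 1 higher, retinoic acid 1 higher and 3 lower, neighbours 3 lower. Without replicate 1 of both conditions they were PRC2 1 lower, PRC1 1 lower, trithorax 1 higher and neighbours 1 higher. At an adjusted p under 0.01 the retinoic acid list had 0 lower. With single libraries left out, PRC2 lower, trithorax higher and retinoic acid lower each ran from 0 to 1. Without replicate 1 of both conditions the retinoic acid list still had 1 lower, but RXRG (-0.88) was lost and CYP26B1 (-3.53) gained. With the block, 6 melanoma markers were lower against 1 without it, and 1 fibroblast marker against 0. The block changed no other call reported here. Low counts limit the 9 untested members, and 3 libraries per condition limit the rest.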
